A study of Homo sapiens with 6 samples.

Results

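The genes described here are 10 human genes of the heat shock protein machinery: the stress-inducible HSP70 genes HSPA1A, HSPA1B, HSPA6 and HSPA7, the constitutive HSP70 gene HSPA8, the HSP90 genes HSP90AA1 (inducible) and HSP90AB1 (constitutive), and the cochaperone genes DNAJB1, HSPH1 and BAG3. All probes carrying 1 of these gene symbols in the platform annotation were taken, which gave 14 of the 47323 probes on the array, or 10 of its 20046 named genes. HSPA6 and HSPA8 had 2 probes each, HSP90AA1 had 3 and each other gene had 1; the probes of a gene are numbered here from the brightest. Genes were put in roles from textbook knowledge: 11 probes belonged to inducible genes and 3 to constitutive ones.

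The cells were NCI-H460, an established human line of non-small cell lung cancer. A cancer stem cell-rich (CSC-rich) population had been propagated from it as spheroids, and wild-type parental cells were grown beside it with 10% fetal bovine serum, which the labels name for the parental culture alone; medium and population therefore cannot be told apart. Each population was hybridised after 6 h with PNAs-A15, after a scramble control, and untreated, on Illumina HumanHT-12 v4 BeadChips, which gave 6 groups with 1 array each and no replicate of any group. The code name PNAs-A15 is not explained in the sources used here, and the treated CSC-rich array, labelled only as PNA-treated, was taken to have received the same agent. Whether the arrays came from separate cultures is not given.

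HSP70 proteins bind unfolded stretches of other proteins and release them in cycles of ATP hydrolysis; J-domain proteins such as DNAJB1 start the cycle, and nucleotide exchange factors such as HSPH1 and BAG3 end it. HSP90 takes over client proteins from HSP70, among them kinases and steroid receptors. In unstressed cells HSPA8 and HSP90AB1 are made continuously, whereas under heat or proteotoxic stress the transcription factor HSF1 binds heat shock elements in the promoters of the inducible genes; many tumour lines hold some of these inducible genes at a raised level without heat.

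Heat shock elements are repeats of the unit GAA and its reverse complement TTC, and they are shown because they are the sequence feature that most of these promoters share. RefSeq promoter sequence of GRCh38.p14, 250 bases upstream of each listed start, was at hand for 9 of the 10 genes (HSPA7 was not matched), and for genes with several listed starts every window was searched. Both strands were searched for 3 alternating units (GAANNTTCNNGAA or TTCNNGAANNTTC) and for 2 (GAANNTTC or TTCNNGAA), with overlaps allowed, so that each 3-unit match also holds 2-unit matches. In the lines that follow, the capitals mark one match.
HSPA6 (chr1:161524449-161524495, + strand): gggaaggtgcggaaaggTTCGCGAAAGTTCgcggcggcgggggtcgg
HSPA1A (chr6:31815418-31815463, + strand): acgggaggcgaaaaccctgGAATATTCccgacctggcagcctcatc
HSPA1B (chr6:31827614-31827659, + strand): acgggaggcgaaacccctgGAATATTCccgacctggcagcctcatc
DNAJB1 (chr19:14518418-14518463, - strand): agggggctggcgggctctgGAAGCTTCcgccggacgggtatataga
HSP90AA1 (chr14:102087103-102087149, - strand): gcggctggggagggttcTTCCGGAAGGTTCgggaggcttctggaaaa
HSP90AB1 (chr6:44247814-44247860, + strand): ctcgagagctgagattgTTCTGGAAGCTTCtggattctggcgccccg
HSPA8 (chr11:123062162-123062208, - strand): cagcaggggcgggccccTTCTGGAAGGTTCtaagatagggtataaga

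A 3-unit match was found in the promoters of 4 of the 9 genes, HSPA6, HSP90AA1, HSP90AB1 and HSPA8, against 0.557% of the 27305 genes in the promoter table. A 2-unit match was found in 7 of the 9 genes, against 14.0% of all genes. HSPH1 and BAG3 had neither, which says only that these letters are not in this window. The printed HSPA6 match lay 74 to 62 bases before the start, the HSPA8 match 55 to 43 bases before it and the DNAJB1 match 47 to 40 bases before it. The upstream sequences of HSPA1A and HSPA1B were 93.6% identical over 251 aligned columns, and these 2 genes code for nearly the same protein. HSPA1A and HSPA1B, and likewise HSPA6 and HSPA7 (annotated as a pseudogene in human), can share hybridising RNA; the probe sequences were not used here, so each member of these pairs is uncertain on its own.

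Before the members' values, 1 array has to be set apart. Pearson's r between the parental PNAs-A15 array and each other array was 0.845 to 0.868 over normalized log2 values, whereas the other 5 arrays had an r of 0.913 to 0.992 among themselves. The parental PNAs-A15 array also had the lowest share of detected probes, 36.5% against up to 42.8%. On this measure the CSC-rich scramble array, at 38.5%, was close to it. Cell type markers fixed for the check were only partly found: KRT8 and KRT19 of the epithelial list were detected on all 6 arrays, but KRT18 and EPCAM on 0, with a summed signal of 5287 to 27151 for the 4 epithelial genes. Of 3 immune genes only CD14 was detected, with summed signals of 488 to 730 and PTPRC and CD3E at background on every array. COL3A1 and PDGFRB were detected on all 6 arrays and COL1A2 on 1, while COL1A1, PECAM1 and VWF were detected on 0; the 6 fibroblast and endothelial genes summed to 1469 to 7213. COL3A1, a fibrillar collagen, had 305, 444 and 352 in CSC-rich cells with PNAs-A15, scramble and untreated, against 252, 4499.8 and 6043 in parental cells, and KRT19 had 9804, 2980.0 and 5476, against 3066, 16571 and 12072. On the parental PNAs-A15 array both were thus far below the other parental arrays, as most members were. The other markers detected on all 6 arrays went the other way. With PNAs-A15, scramble and untreated in parental cells, KRT8 had 11288, 10263 and 8462, PDGFRB 715, 561 and 642, and CD14 498, 414 and 403. The part of these differences in the results was not tested.

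Signals are the deposited intensities, linear and not normalized between arrays, and a probe counts as detected where its deposited detection p-value was below 0.05. Levels of different probes are not compared, since each probe has its own brightness.

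**Figure D1:**
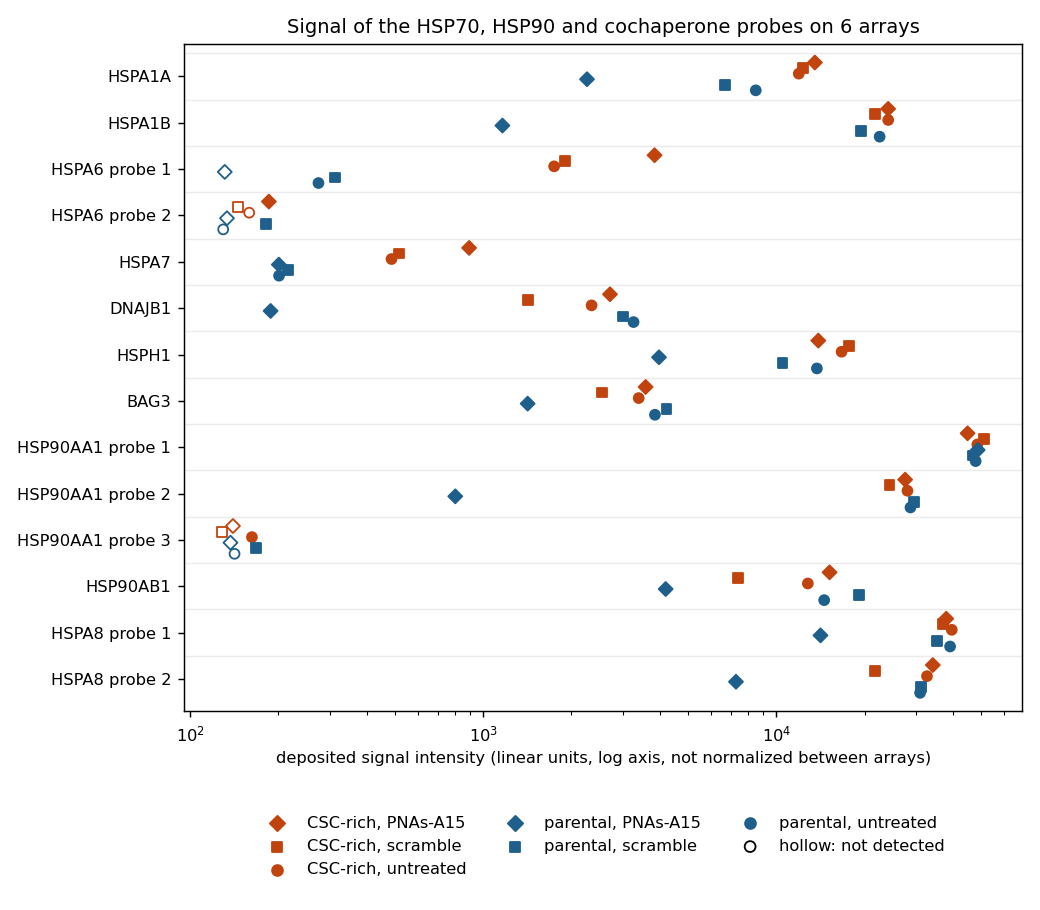
Deposited signal intensity (linear units on a log axis) of the 14 probes on the 6 arrays; colour marks the population, shape the treatment, and hollow points were not detected. The parental PNAs-A15 diamonds lie to the left of the other arrays for most genes, while both HSPA6 probe 1 and HSPA7 have all 3 CSC-rich arrays to the right of all 3 parental ones. The share of all kept probes separated in this way was not counted.

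The inducible HSP70 genes separated the arrays in different ways. HSPA1A, a major heat-inducible HSP70, had signals of 13542 with PNAs-A15, 12311 with scramble and 11930.4 untreated in CSC-rich cells, against 2260.3, 6669 and 8509 in parental cells. All 3 CSC-rich arrays lay above all 3 parental arrays, and the parental PNAs-A15 array was the lowest. HSPA1B, its near-identical neighbour on chromosome 6, had 24079, 21690.1 and 24088 in CSC-rich cells with PNAs-A15, scramble and untreated, against 1163, 19477.5 and 22522 in parental cells. Here 5 arrays lay close together and the parental PNAs-A15 array alone was far below them. HSPA6, the HSP70 gene with the most strictly stress-dependent expression, had probe 1 signals of 3843, 1900 and 1746 in CSC-rich cells, against 131 (not detected), 312 and 274 in parental cells. The populations did not overlap, and within the CSC-rich cells the PNAs-A15 array was the highest. HSPA7 had 895, 518 and 487 in CSC-rich cells, against 201, 215 and 201 in parental cells. It too had no overlap between populations, and its highest signal was on the CSC-rich PNAs-A15 array. How many of all kept probes separate the populations in this way was not counted. The separations at HSPA1A, HSPA6 probe 1 and HSPA7 are therefore not read as a trait of these genes. HSPA6 probe 2 stayed between 129.7 and 186 on all arrays and was detected on 2 of them, the CSC-rich PNAs-A15 array and the parental scramble array, so it did not follow probe 1 of the same gene.

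The cochaperone genes showed the low parental PNAs-A15 array without a separation of the populations, except HSPH1. DNAJB1 had signals of 2707 with PNAs-A15, 1418 with scramble and 2343 untreated in CSC-rich cells, against 188, 2989 and 3258 in parental cells. The parental PNAs-A15 array was again the lowest by far, and the parental scramble and untreated arrays were the highest of the 6. BAG3, which links HSP70 clients to selective autophagy, had 3582, 2543 and 3392 in CSC-rich cells, against 1418, 4222 and 3855 in parental cells, again with the parental PNAs-A15 array lowest and the parental scramble and untreated arrays highest. HSPH1, the HSP110-type exchange factor, had 13911, 17710.2 and 16699 in CSC-rich cells, against 3979, 10496 and 13757 in parental cells. The CSC-rich arrays lay above all 3 parental arrays, with the CSC-rich PNAs-A15 and parental untreated arrays nearly level. The share of all kept probes separated in this way was not counted.

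Among the constitutive genes the parental PNAs-A15 array was again the lowest. HSP90AB1, the HSP90 made without stress, had 15197 with PNAs-A15, 7385 with scramble and 12813 untreated in CSC-rich cells, against 4193, 19187 and 14566.5 in parental cells; the scramble array was the lowest of the CSC-rich arrays and the highest of the parental ones. HSPA8, the constitutive HSP70 that also strips clathrin coats from vesicles, had probe 1 signals of 38007, 37017 and 39686 in CSC-rich cells, against 14152, 35227 and 39168 in parental cells. HSPA8 probe 2 had 34202, 21752 and 32673, against 7284, 31254 and 30950. Both HSPA8 probes were thus lowest on the parental PNAs-A15 array.

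The 2 bright probes of HSP90AA1 disagreed. Probe 1 had signals of 44941, 51265 and 48519.9 in CSC-rich cells, against 48668, 46895 and 47882 in parental cells, with no array standing apart; these values are near the top of the scale, which reached between 60397 and 63801 on the 6 arrays. Probe 2 had 27518, 24345 and 28024 in CSC-rich cells, against 803, 29566 and 28697 in parental cells. On the parental PNAs-A15 array probe 2 was therefore low where probe 1 was not. The platform annotation assigns probe 1 to one HSP90AA1 transcript and probes 2 and 3 to another; the transcripts were not told apart further. Probe 3 stayed between 128 and 168 and was detected on 2 arrays, the CSC-rich untreated and the parental scramble array.

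The effect of PNAs-A15 was first read within each population, as the difference between single arrays in log2 after background correction and quantile normalization; these differences have no replicate and no test. In parental cells, 12 of the 14 probes were lower with PNAs-A15 than with scramble, as were 9863 of the 21526 kept probes. Of the 14, 7 were at least 2-fold lower, where 19.7% of kept probes were that much lower. Among kept probes with a mean log2 of 10 or more, the share was 18.3%. HSPA6 probe 1, HSPA6 probe 2, HSPA7 and HSP90AA1 probe 3 were dimmer than that, so this share does not match all members in brightness. The median difference of the members was -1.05, beside 0.11 for all kept probes. Because the scaling moves the whole array, both medians shifted under other scalings: with median scaling they were -1.35 and -0.34, and without normalization -1.48 and -0.44. Fewer cells with a transcript and less of it per cell cannot be told apart in such bulk RNA.

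The largest parental differences were in 3 inducible genes. HSP90AA1 probe 2 was 24.4-fold lower with PNAs-A15 than with scramble (log2 -4.61), which placed it at rank 123 from the lowest of the 21526 kept probes. DNAJB1 was 15.7-fold lower (log2 -3.97, rank 268 from the lowest) and HSPA1B was 10.9-fold lower (log2 -3.45, rank 473). HSPA6 probe 1, not detected on the treated array, was lower by a bound of at least 2.40-fold on the normalized scale, taken against the lowest signal among detected probes of that array; the deposited signals differed by 2.37-fold. The 3 constitutive probes were all lower, at -1.78 for HSP90AB1, -1.10 for HSPA8 probe 1 and -1.80 for HSPA8 probe 2 on the log2 scale. HSPA1A (1.99-fold), HSPH1 (1.90-fold) and BAG3 (1.86-fold) were lower by just under 2-fold; with median scaling they were at -1.33, -1.15 and -1.37 in log2 and in unnormalized signals at -1.56, -1.40 and -1.57. Under either of these scalings 10 of the 14 probes were at least 2-fold lower, where 29.9% and 27% of kept probes were. HSP90AA1 probe 1 differed by 0.17. HSPA7 was the 1 member at least 2-fold higher (log2 1.09, background 19.5% of kept probes), but its difference was 0.23 with median scaling and -0.10 in the unnormalized signals, so its direction depended on the scaling.

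Against the untreated parental array, which shares the treated array with the comparison just given, 9 of the 14 probes were at least 2-fold lower, with a background of 19.3%, and HSPA7 was the 1 probe at least 2-fold higher, with a background of 19% and a difference of 0.29 in log2 with median scaling. DNAJB1 was 18.2-fold lower, HSPA1B 13.6-fold and HSP90AA1 probe 2 25.8-fold. The median was -1.44, beside 0.13 for all kept probes. Against scramble the medians were -0.93 for the 11 inducible probes and -1.78 for the 3 constitutive ones, whereas against untreated cells they were nearly equal, at -1.44 and -1.46.

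In CSC-rich cells the differences were smaller, and 8 of the 14 probes were higher with PNAs-A15 in each of the 2 comparisons. Of the 21526 kept probes, 10558 were higher against untreated and 9912 against scramble, so this count lies near the background. With PNAs-A15 against untreated, 2 of the 14 probes were at least 2-fold higher, where 0.311% of kept probes were, and 0 were at least 2-fold lower, where 0.246% were. They were HSPA6 probe 1, 2.46-fold higher and at rank 6 from the highest of 21526 probes, and HSPA7, 2.21-fold higher and at rank 33. In unnormalized signals the 2 differences were 1.14 and 0.88 on the log2 scale. Since these 2 transcripts may share hybridising RNA, they do not count as 2 separate observations. Every other member was within -0.38 and 0.56 of its untreated level in log2.

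Against the scramble array of the CSC-rich cells, 0 of the 14 probes passed 2-fold in either direction; 8.23% of kept probes were at least 2-fold higher and 3.04% at least 2-fold lower. HSPA6 probe 1 was 1.95-fold higher, HSP90AB1 1.82-fold, DNAJB1 1.81-fold and HSPA7 1.54-fold higher, and HSPH1 was 1.57-fold lower. For HSP90AB1 and DNAJB1 the scramble array itself was low, at -0.62 and -0.57 in log2 against the untreated array. The median over the members was 0.24, beside -0.06 for all kept probes, and 0.09 against the untreated array, beside -0.01.

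**Figure D2:**
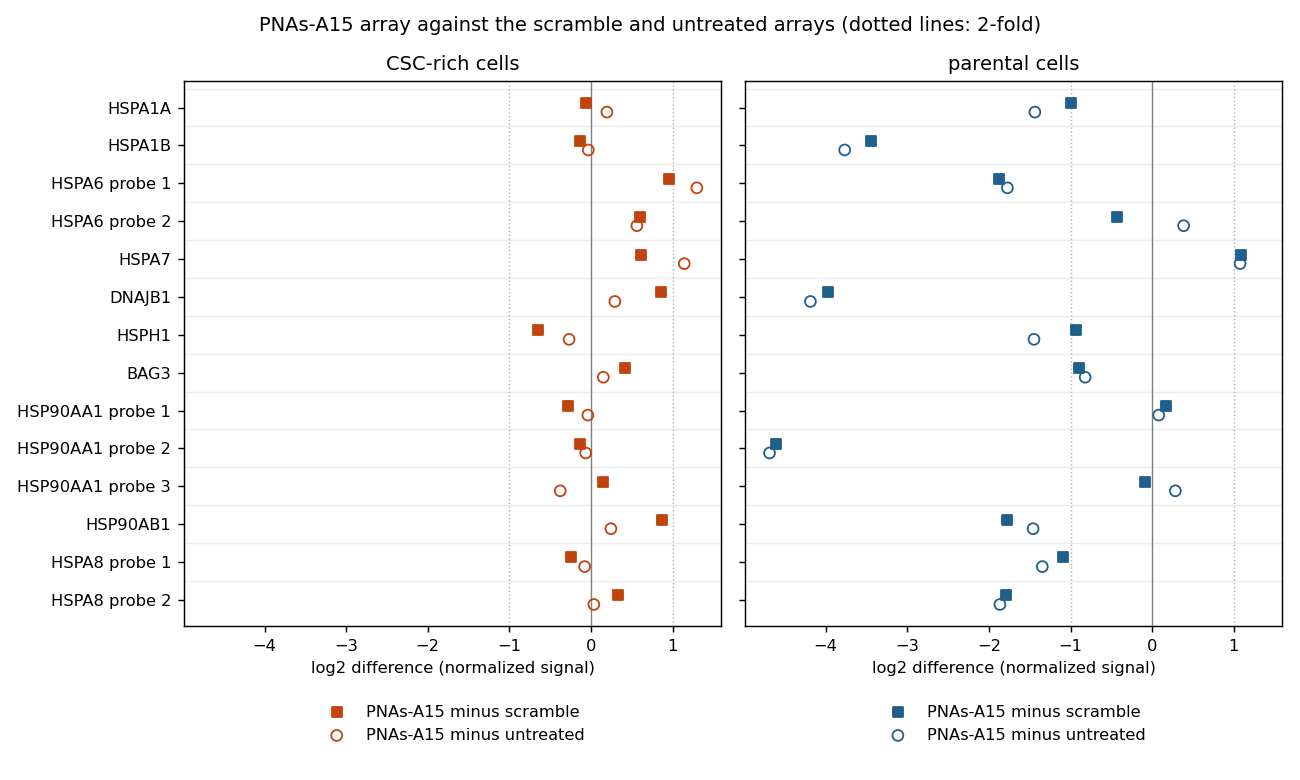
Log2 difference of normalized signal between the PNAs-A15 array and the scramble array (squares) or the untreated array (circles) in CSC-rich cells (left) and parental cells (right); dotted lines mark 2-fold, and each point is 1 array against 1 array. In parental cells DNAJB1, HSPA1B and HSP90AA1 probe 2 lie beyond -3. In CSC-rich cells HSPA6 probe 1 and HSPA7 lie furthest to the right among the circles. Among the squares HSPA6 probe 1 (0.96) is followed by HSP90AB1 (0.87) and DNAJB1 (0.86), with HSPA7 at 0.62.

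The scramble control moved no member by 2-fold in either population. Against untreated cells, the 14 probes ranged from -0.62 (HSP90AB1) to 0.52 (HSPA7) in CSC-rich cells, with a median of 0.08, and from -0.52 (HSPH1) to 0.82 (HSPA6 probe 2) in parental cells, with a median of -0.07. At least 2-fold higher were 0.929% of kept probes in CSC-rich cells and 0.869% in parental cells, and at least 2-fold lower 4.45% and 0.195%. The value for HSPA6 probe 2 came from a probe not detected on the untreated array, where its bound was at least 1.20-fold higher.

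Tested over both populations with limma's additive model of population and treatment, which has 2 residual degrees of freedom, no treatment comparison passed an adjusted p of 0.05 for any of the 21526 probes (0% called), members included. For PNAs-A15 minus scramble, 609 probes (2.83%) and 0 members had an unadjusted p under 0.05; the members' adjusted p-values were 0.85 to 0.99. For PNAs-A15 minus untreated, 575 probes (2.67%) had an unadjusted p under 0.05, and HSPA7 was the 1 member among them (log2 1.11 ± 0.41 SE, limma adjusted p 0.81). The HSPA7 value averages 1.14 in CSC-rich cells and 1.08 in parental cells. With median scaling these differences were 1.06 and 0.29, and in unnormalized signals 0.88 and -0.0025. For scramble minus untreated, 4 probes (0.0186%) and 0 members had an unadjusted p under 0.05. The spread in this model holds any difference of the response between populations, and with 1 array per group that difference could not be tested. DNAJB1 shows what the model averages: its differences against scramble were 0.86 in CSC-rich cells and -3.97 in parental cells, and its fitted value was -1.56 ± 1.14 (SE).

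When the CSC-rich PNAs-A15 array was left out, so that the treated level came from the parental array alone and 1 residual degree of freedom remained, 6 of the 14 members passed the adjusted threshold as lower than scramble, where 14.5% of all probes did, and 0 as higher, where 12% did. They were HSP90AA1 probe 2 (limma adjusted p 2.7e-06), DNAJB1, HSPA1B, HSPA6 probe 1, HSPA8 probe 2 and HSP90AB1 (adjusted p 0.023). Against untreated the count was 8, where 15.9% of probes passed as lower and 13.7% as higher. The treated array in this fit is a single array, assumed to vary like the others, and it is the array that stands apart from the rest. When the parental PNAs-A15 array was left out instead, no kept probe passed for PNAs-A15 minus scramble, members included.

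Across treatments, the 1 member that passed the threshold between CSC-rich and parental cells was HSPA6 probe 1. In the additive fit 12 of the 14 probes were higher in CSC-rich cells, as were 10520 of the 21526 kept probes. The members' median log2 difference was 0.77, beside -0.02 for all kept probes. Most of that shift lay on the PNAs-A15 arrays: the medians of the pairs were 1.75 with PNAs-A15, 0.17 with scramble and 0.06 untreated, and without the PNAs-A15 arrays 9 of 14 were higher, with a median of 0.10. In the additive fit 1 of 14 members passed, where 0.729% of kept probes passed in either direction, 0.181% as higher and 0.548% as lower. HSPA6 probe 1 rose 22.4-fold (log2 4.49 ± 0.64 SE, 3 arrays per population, limma adjusted p 0.049), and in parental cells it was detected on 2 of 3 arrays. The fold depends on the scale: it was 10.4-fold on unnormalized signals and 11.1-fold without background correction. HSPA6 probe 2, detected on 2 arrays in all, differed by 0.31 ± 0.37 (SE) with an adjusted p of 0.74. This call of probe 1 was lost under 4 of the alternatives, with limma adjusted p-values of 0.069 without background correction, 0.14 with median scaling, 0.18 on unnormalized signals and 0.23 with no filter on dim probes. HSPA7 differed by 2.17 ± 0.33 (SE), with an adjusted p of 0.058. HSPA1A differed by 1.37 ± 0.42 and HSPH1 by 1.04 ± 0.38 (SE), with adjusted p-values of 0.21 and 0.27. These 4 probes were those with an unadjusted p under 0.05, as were 15.2% of kept probes.

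DNAJB1 (1.96-fold, SE 0.93 in log2), HSPA1B (2.82-fold, SE 0.74) and HSP90AA1 probe 2 (2.88-fold, SE 0.92) had differences between populations with large standard errors, and none passed. On the untreated and scramble arrays their population differences lay between -0.75 and 0.53 in log2, while on the PNAs-A15 arrays they were 4.08, 3.85 and 4.56.

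Taken pair by pair, the untreated arrays placed 2 members past 2-fold as higher in CSC-rich cells, where 5.57% of kept probes were, and 0 as lower, where 5.86% were. They were HSPA6 probe 1 (10.4-fold, rank 14 from the highest) and HSPA7 (3.92-fold, rank 130), whose deposited signals differed by 6.37-fold and 2.42-fold. HSPA1A was 1.51-fold higher, and the other 11 probes were between -0.40 and 0.54 in log2, with HSPA8 probe 1 at -0.06, HSPA8 probe 2 at 0.02 and HSP90AB1 at -0.12. Without treatment the constitutive genes therefore differed little between the 2 arrays. On the scramble arrays 4 members were at least 2-fold higher (background 13.6%): HSPA6 probe 1 (12.3-fold), HSPA7 (5.68-fold), HSPA1A (2.45-fold) and HSPH1 (2.37-fold). Their deposited signals differed by 6.10-fold, 2.40-fold, 1.85-fold and 1.69-fold, so HSPA1A and HSPH1 stayed under 2-fold there. HSP90AB1 was 2.09-fold lower there (background for lower 15.2%). On the PNAs-A15 arrays 10 of 14 were at least 2-fold higher (background 19.9%) and 0 at least 2-fold lower (background 18.7%), with HSPA6 probe 1 highest. Its bound was at least 57.3-fold on the background-corrected, normalized scale, and its deposited signals differed by 29.3-fold.

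With both PNAs-A15 arrays left out, the limma fit placed 2 members past the threshold, where 7.13% of kept probes passed as higher and 8.67% as lower. HSPA6 probe 1 rose 11.3-fold (log2 3.50 ± 0.33 SE, adjusted p 5.04e-06) and HSPA7 rose 4.72-fold (log2 2.24 ± 0.34 SE, adjusted p 0.000405), with 2 arrays per population. HSPA1A was at 0.94 ± 0.34 (SE) with an adjusted p of 0.073, and HSPA6 probe 2 at 0.11 ± 0.35 (SE) with an adjusted p of 0.88. The difference at HSPA6 probe 1 and HSPA7 between the populations was thus present without the array that stands apart.

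**Figure D3:**
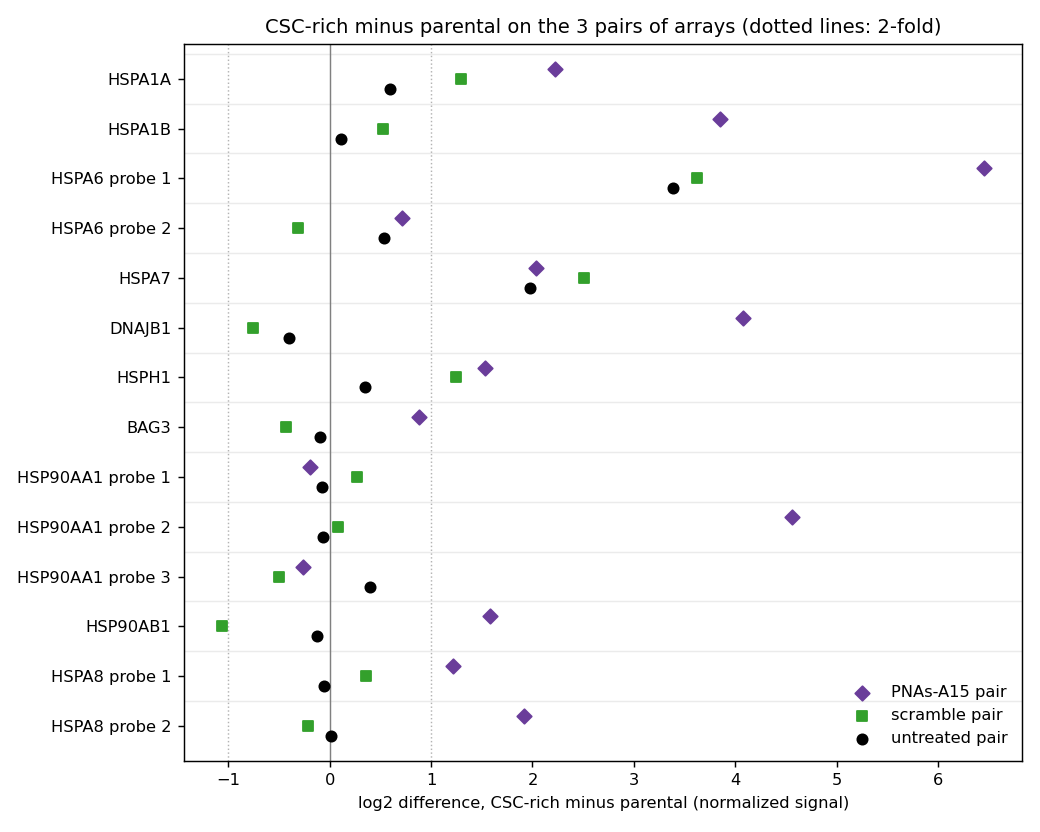
Log2 difference of normalized signal, CSC-rich minus parental, for the 14 probes on the PNAs-A15, scramble and untreated pairs of arrays; dotted lines mark 2-fold and each point is 1 pair of arrays. HSPA6 probe 1 and HSPA7 are at or beyond 1.97 in all 3 pairs, while DNAJB1, HSPA1B and HSP90AA1 probe 2 are beyond 3 on the PNAs-A15 pair only.

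Other chaperone genes were read beside the members, in 8 lists with 80 genes kept. No gene of these lists passed the adjusted threshold of limma's additive fit for population or treatment. Of all kept probes, 0.729% passed for population and 0% for any treatment comparison. The values for PNAs-A15 minus scramble in parental cells stand beside the median of all kept probes, 0.11, and -0.34 with median scaling, and beside the shares given earlier, 19.7% of kept probes at least 2-fold lower and 19.5% higher. With so few genes per list, the counts of most lists lie near those shares. Among 17 other cochaperones of HSP70 and HSP90, 6 were at least 2-fold lower and 2 at least 2-fold higher, with a median of 0.04 that became -0.59 with median scaling. STIP1, which holds HSP70 and HSP90 together, had a signal of 353 with PNAs-A15 against 9814 with scramble (log2 -4.16). PTGES3, the HSP90 cochaperone p23, had 430 against 8294 (log2 -3.61). PPID, a cyclophilin that binds HSP90, had 876 against 235 and was higher by 3.58 in log2 (1.90 unnormalized).

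Among 12 other HSP40 genes, 4 were at least 2-fold lower in parental cells with PNAs-A15 and 2 at least 2-fold higher, with a median of -0.22. DNAJB14 had 157 against 840 (log2 -2.88), DNAJC7 209 against 1775 (log2 -2.79) and DNAJB6 687 against 3938 (log2 -1.80). Among 7 other HSP70 and HSP110 genes, 1 was at least 2-fold lower and 2 at least 2-fold higher, with a median of 0.82 that became -0.06 with median scaling. The lower one was HSPA2, which was not detected with PNAs-A15 (116) against 752 with scramble, and HSPA13, an HSP70 relative of microsomes, was higher by 1.87.

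The small heat shock proteins had 3 of 6 genes at least 2-fold higher and 0 lower, with a median of 0.83 that was 0.01 in unnormalized signals; CRYAB, the lens and muscle small heat shock protein, had 978 against 622 (log2 1.72). The 2 kept genes of the list of heat shock factors and their regulators were HSF4, whose difference was 0.72 but -0.18 with median scaling, and HSBP1, a protein that binds HSF1, at 1.08. The 14 chaperonin and prefoldin genes had a median of 0.08, with CCT7 at -1.18 and CCT4 at 1.02 as the 2 past 2-fold. Of 9 mitochondrial chaperones, 1 passed 2-fold, LONP1 at -1.53, and the median was -0.28. Of 13 chaperones of the endoplasmic reticulum, 3 were at least 2-fold higher and 2 lower, PDIA6 at -2.83 and HYOU1 at -1.74, with a median of 0.41 that became -0.19 with median scaling.

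In CSC-rich cells the same lists differed little between PNAs-A15 and untreated, with 0 genes of any list past 2-fold. Against scramble, 4 of 13 chaperones of the endoplasmic reticulum were at least 2-fold higher, among them HYOU1 (1.28) and PDIA6 (1.26), and so were 3 of 9 mitochondrial ones, LONP1 (1.34), CLPP (1.11) and TRAP1 (1.06), beside 8.23% of kept probes. PDIA4, counted among the 4, had a signal of 337 with PNAs-A15, against 139 with scramble, where it was not detected; its bound was at least 3.48-fold higher on the normalized scale and its deposited signals differed by 2.42-fold. The CSC-rich scramble array was low for these genes, as for HSP90AB1 and DNAJB1: against untreated, it was at -1.03 in log2 for PDIA6 and at -1.02 for LONP1, and PDIA4 had 257 on the untreated array.

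Between populations, HSPA14, an atypical HSP70 bound to ribosomes, had the lowest adjusted p among the list genes (log2 -1.26 ± 0.32 SE, limma adjusted p 0.17). TRAP1, the mitochondrial HSP90, was at -1.37 ± 0.41 with an adjusted p of 0.21. DNAJB4 was at 1.39 ± 0.49 with an adjusted p of 0.27. None of the list genes therefore showed a population difference past the threshold, which 0.729% of all kept probes passed. With so small a share, the lack of a call among the list genes lies near that background. HSPA6 probe 1 passed in the main fit, and whether HSPA6 differs from the list genes was not tested.

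**Figure D4:**
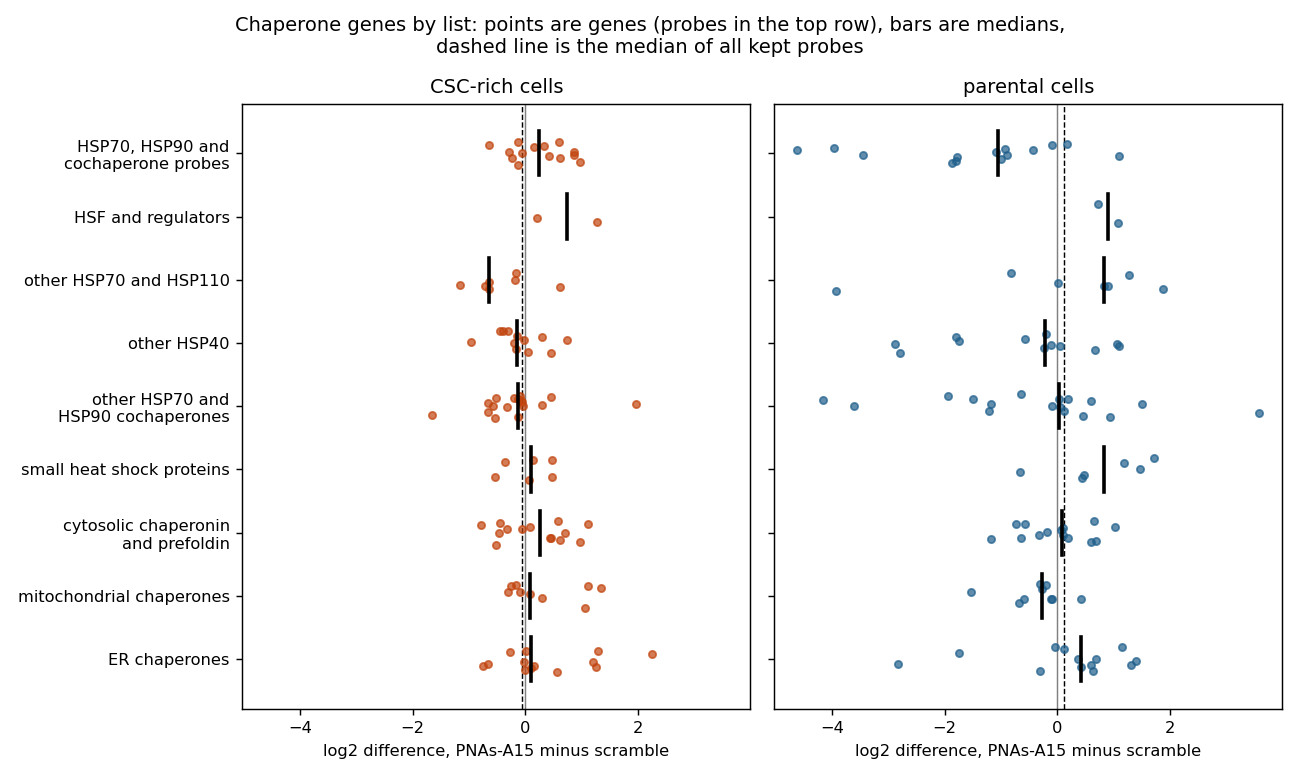
Log2 difference of normalized signal, PNAs-A15 minus scramble, for the 14 member probes (top row) and the genes of 8 other chaperone lists in CSC-rich cells (left) and parental cells (right); points are single genes on 1 array against 1 array, bars are medians and the dashed line is the median of all kept probes. In parental cells the members' median lies at -1.05 and the lowest median of a list at -0.28; in CSC-rich cells the medians of the lists run between -0.64 and 0.73.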

How the data were processed

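Total RNA (0.55 ug) of each sample was made into biotinylated cRNA and hybridised to 1 array, per the labels' protocols. The deposited table gives linear intensity values and detection p-values of 47323 probes per array, exported by the authors from GenomeStudio 2011.1, per the submitters' processing notes; its intensity values equal those of the deposited series matrix in 100% of cells, so they were not normalized between arrays. The labels and headers give no genome build, and the columns name no slide or scan. The number of arrays limits the precision.

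Probes were named through the platform annotation (30113 with 1 gene symbol, 8 with several, 17202 not listed; 30074 gene identifiers matched RefSeq and 0 symbols changed). In limma 3.58.1 (R 4.3.3), neqc corrected background from the detection p-values (offset 16), quantile-normalized and took log2. A probe was kept if its detection p-value fell below 0.05 on 2 or more arrays (21526 probes, all 14 members among them). limma's additive model of population and treatment gave p-values, adjusted by Benjamini-Hochberg over all kept probes; these measure only the spread between these arrays, which may be technical. Single-array differences have no test. A probe not detected on 1 side has a bound, against the higher of the lowest detected signal and its own. Chaperone lists were read by gene, each through its brightest probe. Alternatives were median scaling, unnormalized signals (log2, floor 16), no background correction, other filters, fits by gene or by population alone, and leaving out arrays. Promoters were searched in Python 3.11.15, with Biopython 1.88 for the alignment. The fit was tested on simulated data with independent noise and a change between populations only. That test had no array standing apart and no treatment response that differed between populations, so it does not cover these features of the data.

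Every member probe is named in the text; from each list up to 3 genes were named by the size of the parental PNAs-A15 minus scramble difference and up to 3 by that of the population difference, and the genes closest in profile by root mean square distance. The members and lists were chosen with earlier results of these data known.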

Additional observations from a re-analysis of the deposited data

Results flagged for a closer look

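For 6 member probes the PNAs-A15 array lay above both the scramble and the untreated array in one population and below both in the other. This held under quantile normalization, median scaling and in unnormalized signals. How many of all kept probes did the same was not counted, so the 6 are not read as a trait of these genes. As each population has 1 array per treatment, the difference between populations was not tested. Given as the parental difference minus the CSC-rich difference of PNAs-A15 minus scramble in log2, DNAJB1 was at -4.83, HSPA6 probe 1 at -2.83, HSP90AB1 at -2.64, HSPA8 probe 2 at -2.13 and BAG3 at -1.31. In these 5 the treated array was higher in CSC-rich cells and lower in parental cells. HSP90AA1 probe 1, near the top of the scale, was at 0.46, with the treated array lower in CSC-rich cells (-0.29 against scramble) and higher in parental cells (0.17). All 6 rest on the parental PNAs-A15 array, whose correlation with the other arrays, 0.845 to 0.868, was the lowest; the part of that array in these differences was not tested.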

How the results depend on the processing

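The count of members called between populations was 1 (HSPA6 probe 1) in the main fit, which called 157 of the 21526 kept probes. The member count was 0 without background correction, where 112 probes were called. It was also 0 with median scaling, with unnormalized signals and with no filter on dim probes, where no probe at all was called. It was 2, with HSPA7 added, with median scaling on probes detected on all 6 arrays (chosen after seeing the data), by gene with the brightest probe and with population alone. These settings called 529 probes, 279 genes and 645 probes in all. Leaving out either array of a treatment, or both, gives the same fit of the population difference. Without PNAs-A15 arrays 2 members and 3401 probes were called, without scramble arrays 1 member and 60 probes, and without untreated arrays 1 member and 451 probes. With only the 14269 probes detected on all 6 arrays tested, 231 were called. The member count stayed at 1 but was HSPA7, since HSPA6 probe 1 left the test. For PNAs-A15 minus scramble members were called only without the CSC-rich PNAs-A15 array, where the treated level came from 1 array and calls rose over all probes too. For scramble minus untreated no member was called on leaving out any array. The parental median of PNAs-A15 minus scramble, -1.05, was -1.48 in unnormalized signals and -0.61 with median scaling on probes detected on all 6 arrays; this second setting moved the median against untreated to -0.93 in place of -1.44 and that of CSC-rich minus parental on the PNAs-A15 arrays to 1.28 in place of 1.75. The causes of these and the following changes were not tested. The other 91 summary values moved by less than the median residual SD of 0.43 or stayed within 1.5 times their count; 6 of these were medians near 0 that changed sign. Of the single-probe values between populations, 197 kept direction and side of the threshold, 7 gained a call, 4 lost one and 23 changed sign, none of the 23 with a call. In both tallies, leaving out either array of a treatment, or both, entered the same population values more than once. Leaving out arrays or pairs gave -0.58 to 1.84 for DNAJB1, -0.26 to 0.39 for BAG3, -0.59 to 0.73 for HSP90AB1 and -0.10 to 0.97 for HSPA8 probe 2, lowest each time without the PNAs-A15 arrays; -0.14 to 0.094 for HSP90AA1 probe 1 and -0.38 to 0.067 for its probe 3. HSP90AA1 probe 1, at -0.0031, was at 0.00025 with median scaling and 0.011 in unnormalized signals. The additive fit matched the populations by treatment, but arrays could not be paired by culture because the labels carry no replicate numbers. Signal near background limits HSPA6 probe 2 and HSP90AA1 probe 3, each detected on 2 arrays.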

Other observations

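Genes with a profile over the 6 arrays most like that of 3 members were found by the root mean square distance between profiles in log2, each centred on its own mean, over 12091 other genes; these are descriptions over 6 arrays that include the low parental PNAs-A15 array. For DNAJB1 the closest were JAK1 (0.14), EIF3I (0.16) and PIP4P1 (0.16), where the median gene was at 1.59. JAK1, a cytokine receptor kinase, had signals of 951 with PNAs-A15, 600.2 with scramble and 993 untreated in CSC-rich cells, against 139, 1147 and 1128 in parental cells, with the parental PNAs-A15 array lowest and the parental scramble and untreated arrays highest, as for DNAJB1. On the parental PNAs-A15 array the JAK1 signal of 139 is at background, since EPCAM, not detected there, had 146.04. For HSPA8 probe 1 the closest were NUP133 (0.036), SHLD2 (0.042) and CMPK1 (0.060), beside a median of 0.70.

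HSPA6 had no close match: ESM1 (0.73), FOS (0.74) and H4C8 (0.82) were the nearest, beside a median of 2.40. FOS, an immediate early gene, had 1125, 1010.3 and 1022 in CSC-rich cells with PNAs-A15, scramble and untreated, against 119, 331 and 299.9 in parental cells. ESM1, a secreted proteoglycan, had 7274, 9402 and 8061 in CSC-rich cells, against 146, 580 and 728 in parental cells. On the parental PNAs-A15 array FOS and ESM1 (145.79) were at background, below the undetected EPCAM (146.04), so these distances rest partly on background values. Both genes separate the populations on all 3 pairs of arrays, as HSPA6 does, but neither was raised with PNAs-A15 in CSC-rich cells by as much as HSPA6 probe 1.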
